A study of Homo sapiens with 15 samples.

Results

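The comparison of PC3 cells transfected with a scrambled microRNA mimic against untransfected PC3 cells rests on 4 of the 15 arrays in the study, 2 for each group, and on all 18377 genes that could be named. The 4 arrays were chosen by their titles, which give the line, the time and the treatment. It asks which transcripts change when a synthetic double-stranded RNA that is meant to match no microRNA is carried into the cells. PC3 is a prostate cancer cell line that the labels trace to a bone metastasis, and DU145 is another prostate cancer line used here for comparison. All cells grew in RPMI 1640 with 10% heat-inactivated fetal calf serum and antibiotics. Transfected cells received 20 nM of mimic with Lipofectamine 2000 as they were plated, with a change of medium 6 h later. The untransfected cells carry no mimic in their labels, and whether their medium was also changed is not given in the sources used here. RNA was taken at 48 h in every group. The other PC3 arrays are 2 with a miR-224 mimic and 2 with a miR-452 mimic, and DU145 has 2 untransfected, 1 scrambled and 4 microRNA mimic arrays. No group received the lipid without RNA, so the lipid, the RNA duplex and its particular sequence cannot be told apart in this comparison.

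A microRNA mimic is a short RNA duplex of which 1 strand is loaded into an Argonaute protein and guides it to messages that pair with its seed, the stretch near its 5′ end. A scrambled mimic is loaded in the same way, so it can lower messages that happen to match its own seed. It also competes with the cell's own microRNAs for Argonaute, and long or unmodified duplexes can be read as viral RNA by TLR3, RIG-I, MDA5 and PKR, which switch on interferon and antiviral genes. Cationic lipid enters by endocytosis and loads the endosomes and lysosomes.

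Levels are the deposited log2 values, and changes are the scrambled mean minus the untransfected mean in log2 units ± the standard error from limma, with n = 2 arrays in each group throughout. Genes passed where limma's p, adjusted by Benjamini-Hochberg over all genes, was under 0.05. The labels do not say whether the arrays of a group came from separate cultures, so the p-values rest on a spread that may be technical alone. The keratin genes KRT8, KRT18, KRT19 and KRT7 of simple epithelium stood between 10.48 and 11.39 on all 4 arrays, while the leukocyte gene PTPRC (5.00 to 5.11) and the stromal gene DCN (4.88 to 5.15) stood near the lowest deposited value of 4.49. Other members of those marker lists stood higher. The median level on the 4 arrays ran from 5.93 to 6.11 for leukocyte genes and from 6.68 to 7.07 for stromal genes. It ran from 7.41 to 7.49 over all genes. The epithelial gene EPCAM read 8.18 and 7.87 untransfected and 7.63 and 7.33 with the scrambled mimic. Among all markers of other cell types INSM1, COL3A1 and CD14 passed as higher and HOXB13 and KDR as lower, and EPCAM fell among the epithelial ones.

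With the scrambled mimic 2618 genes passed (14.2% of those tested), of which 611 were higher (3.32%) and 2007 lower (10.9%), nearly all by small amounts. Only RGS4 rose more than 2-fold, and AXL, RNF157, SFT2D2, CIAO2A and the small nucleolar RNAs SNORD78 and SNORD45B fell more than 2-fold. Both scrambled arrays lay above both untransfected arrays for 5373 genes (29.2%) and below them for 6102 (33.2%). The excess of falls went with the level of the gene. The median change was 0.11 in the third lowest decile of genes by level and -0.15 in the ninth, where 20.9% of the genes were lower. The log2 values were also spread less widely on the scrambled arrays, with an SD over features of 1.755 and 1.710, against 1.811 and 1.784 on the untransfected ones. After the PC3 arrays were quantile normalized again the split was 921 higher (5.01%) and 1164 lower (6.33%), and the median change in each decile lay between -0.004 and 0.046. The counts also rested on single arrays. Without untransfected array b they became 6 higher and 76 lower, and without scrambled array c they became 92 higher and 412 lower.

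**Figure D1:**
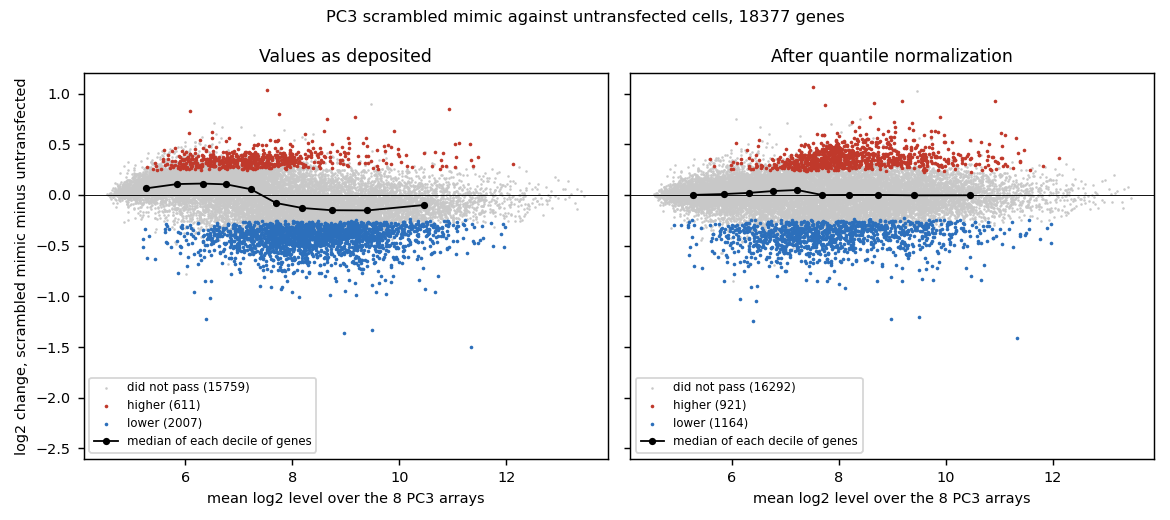
Change of each of 18377 genes (log2, scrambled mimic minus untransfected, 2 arrays each) against its mean log2 level over the 8 PC3 arrays, as deposited and after quantile normalization. Coloured points passed at an adjusted p under 0.05, and the black line joins the medians of the deciles by level, which bend below 0 for well-expressed genes on the left and lie near 0 on the right, while AXL remains the lowest point in both.

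Small noncoding RNAs are set aside here and described below, and the 15 largest falls and 15 largest rises are those among the other genes. The largest falls included messages for a receptor, for membrane traffic and for nutrient sensing. AXL, a receptor tyrosine kinase that binds GAS6, had levels of 11.71 and 11.77 in untransfected cells and 10.32 and 10.16 with the scrambled mimic. The groups were far apart, and the fall was 2.82-fold (-1.50 ± 0.086, adjusted p = 2.5e-05 by limma). RNF157, an E3 ubiquitin ligase, read 9.45 and 9.43 untransfected and 8.09 and 8.06 with the scrambled mimic, a fall of 1.36 ± 0.085. SFT2D2, a protein of vesicle transport to the Golgi, read 9.89 and 9.83 against 8.69 and 8.38, a fall of 1.33 ± 0.10. In these genes the replicates of a group lay much closer to each other than to the other group.

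Small RNAs aside, the other 12 of the 15 largest falls were between -1.01 and -0.90. CIAO2A, which helps insert iron-sulfur clusters, fell by 1.01 ± 0.16. GYG1, the protein that primes glycogen synthesis, fell by 0.98 ± 0.086, from 9.01 and 8.93 to 7.92 and 8.05. RRAGC, a Rag GTPase that signals amino acid supply to mTORC1 at the lysosome, fell by 0.98 ± 0.10, from 9.58 and 9.37 to 8.60 and 8.39. EIF2S3, the gamma subunit of the initiation factor eIF2, read 10.84 and 10.76 untransfected and 9.85 on both scrambled arrays (-0.96 ± 0.095). SEC24C, a cargo adaptor of COPII vesicles, read 10.68 on both untransfected arrays and 9.82 and 9.67 with the mimic (-0.93 ± 0.084). The rest were the nucleotide kinase CMPK1 (-0.98), the phosphatase CTDSP2 (-0.96), WBP1L (-0.95), the inhibitory G protein subunit GNAI3 (-0.95), the endoplasmic reticulum ATPase TOR1A (-0.93), EEIG2 (-0.90) and the endosomal protein ZFYVE16 (-0.90). None of the 15 had overlapping groups, which the rule that named them required. All 15 passed after quantile normalization, and 13 passed without each of the 8 PC3 arrays in turn. CIAO2A and EEIG2 lost their call without untransfected array b.

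These 15 messages were lower with the scrambled mimic than with the other mimics as well. All 15 passed against the mean of the miR-224 and miR-452 mimics, a comparison in which 8.14% of all genes passed, 5.62% as lower. It shares the scrambled arrays that chose these 15 genes, so nothing is read from that count and the values are a description. AXL stood 1.45 ± 0.074 below that mean, SFT2D2 1.26 ± 0.087 and EIF2S3 1.16 ± 0.082. Set against the same untransfected arrays, AXL was at 0.07 with miR-224 and -0.18 with miR-452, SFT2D2 at -0.01 and -0.12, and GYG1 at -0.03 and -0.02, none of which passed. Over the 15 genes the miR-224 values ran from -0.45 to 0.34 and the miR-452 values from -0.65 to 0.09. CMPK1 and TOR1A passed as lower with miR-224, where 6.85% of all genes were, and RNF157, CTDSP2, TOR1A, EEIG2 and ZFYVE16 passed as lower with miR-452, where 14.1% were. Whether these messages match the seed of the scrambled mimic was not tested, since its sequence and the messages' target regions were not used here.

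**Figure D2:**
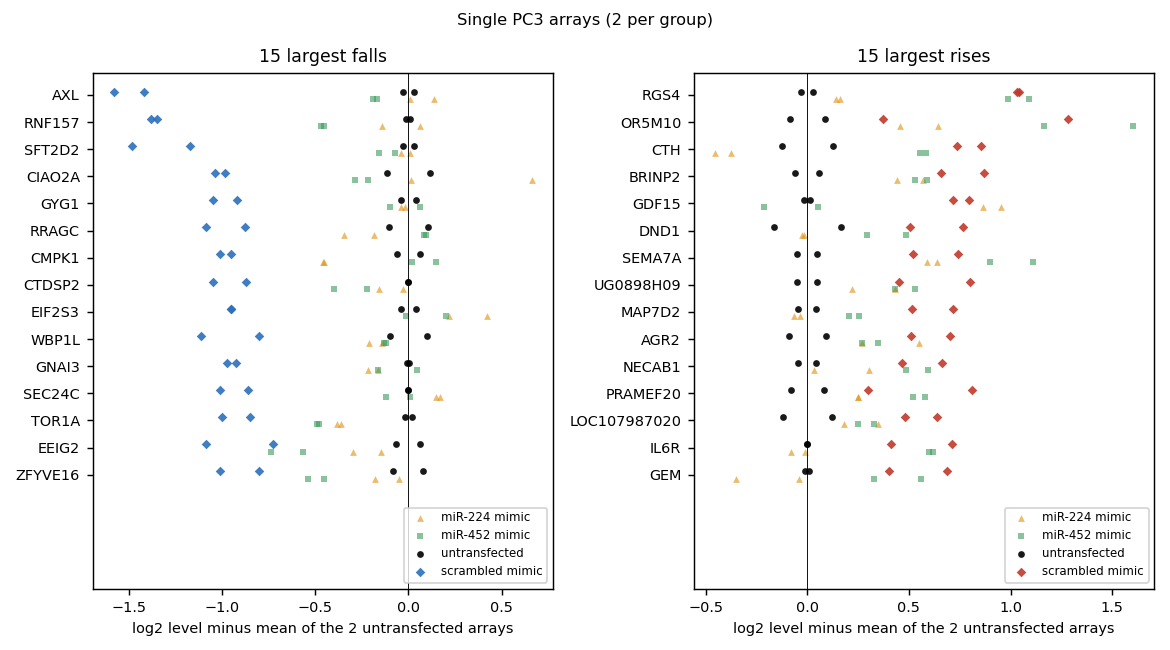
Level on each PC3 array, as a difference from the mean of the 2 untransfected arrays (log2 units), for the 15 largest falls and the 15 largest rises with the scrambled mimic among genes other than small noncoding RNAs. For AXL, SFT2D2 and GYG1 the scrambled arrays lie near or below -0.9 while the miR-224 and miR-452 arrays lie near 0, and for RGS4 the miR-452 arrays lie beside the scrambled ones.

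The rises were smaller, again with small RNAs aside. After quantile normalization 13 of the 15 passed, and OR5M10 and PRAMEF20 did not. RGS4, which speeds the shut-off of G protein signals, read 6.94 and 7.0 in untransfected cells and 8.0 and 8.01 with the scrambled mimic. That is a 2.05-fold rise (1.04 ± 0.076, adjusted p = 0.000124 by limma) with no overlap between groups. CTH, the cystathionine gamma-lyase that makes cysteine, rose by 0.80 ± 0.095, from 7.64 and 7.39 to 8.37 and 8.25. GDF15, a secreted cytokine of the stress response, rose by 0.75 ± 0.096, from 8.24 and 8.27 to 9.05 and 8.97. BRINP2, a neural cell cycle inhibitor, rose by 0.77 ± 0.095, from 8.66 and 8.78 to 9.59 and 9.38. MAP7D2, a microtubule-associated protein, rose by 0.61 ± 0.087. These 5 of the 15 largest rises outside the small RNAs passed without each array in turn. The other 10 did not, and 9 of them were the germ cell RNA-binding protein DND1 (0.63), the semaphorin SEMA7A (0.63), UG0898H09 (0.62), the secreted disulfide isomerase AGR2 (0.60), NECAB1 (0.57), PRAMEF20 (0.56), LOC107987020 (0.56), the interleukin-6 receptor IL6R (0.56) and the small GTPase GEM (0.54). The last was the olfactory receptor gene OR5M10, at 5.77 and 6.68 on the scrambled arrays against 5.48 and 5.31, and its rise of 0.83 ± 0.23 was lost as a call without scrambled array c or either untransfected array.

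The other mimics are set against the same untransfected arrays that chose these rises, so their values are a description. Against those arrays RGS4 was 1.04 ± 0.076 higher with miR-452 and 0.15 ± 0.076 with miR-224, which did not pass. GDF15 was 0.91 higher with miR-224 and at -0.08 with miR-452. CTH was 0.57 higher with miR-452 and 0.42 lower with miR-224 (a change of -0.42, which passed). Of the 15 rises, 11 passed as higher with miR-452, where 8.12% of all genes were, and 4 with miR-224, where 2.84% were. Since the comparisons share those arrays, nothing is read from these counts. Against the mean of both microRNA mimics, where 2.52% of all genes were higher, 6 of the 15 passed. That comparison shares the scrambled arrays that chose the rises, so nothing is read from this count either.

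Cell cycle genes formed the lists with the largest shares of falls. Of 39 genes for mitosis 29 fell and 0 rose, with all 39 changes below 0 and a median of -0.37. Of 39 genes for DNA replication and the start of S phase 26 fell and 0 rose, with all 39 below 0 and a median of -0.32. Over all genes the median was 0.004. Genes of a similar level had a median of -0.15, with 20.9% lower in the decile that holds the middle mitosis gene and 20% in that of the middle replication gene, against 74.4% and 66.7% in the lists. After quantile normalization 13 mitosis genes (median -0.23) and 11 replication genes (median -0.20) were lower and none higher. Without untransfected array b the counts became 1 and 3, and without scrambled array c 6 and 6. Both lists also held falls with the other mimics, set against the same untransfected arrays. With miR-224, where 6.85% of all genes were lower, 28 mitosis genes (median -0.36) and 31 replication genes (median -0.50) were. With miR-452, where 14.1% of all genes were lower, 34 mitosis genes (median -0.45) and 18 replication genes (median -0.25) were.

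The replication falls covered the helicase, its loaders, the polymerases and nucleotide supply. CCNE2, the cyclin E2 that drives entry into S phase, read 9.87 and 9.72 untransfected and 9.03 and 9.11 with the scrambled mimic (-0.72 ± 0.083, adjusted p = 0.00139 by limma). POLE2, a subunit of the leading-strand polymerase, read 9.51 and 9.31 against 8.70 and 8.71 (-0.71 ± 0.089). MCM6, a subunit of the replicative helicase, read 9.02 and 8.90 against 8.29 and 8.23 (-0.70 ± 0.082). These 3 passed without each array in turn. TYMS, the thymidylate synthase, fell by 0.55 ± 0.079, a call lost without untransfected array b. Among mitosis genes SPC25, a kinetochore protein of the NDC80 complex, read 8.39 and 8.15 untransfected and 7.51 and 7.52 with the mimic (-0.75 ± 0.098), and passed without each array. HMMR, a spindle protein, fell by 0.55 ± 0.085, the mitotic kinase CDK1 by 0.61 ± 0.11 and its activating phosphatase CDC25C by 0.46 ± 0.081, each lost without untransfected array b. The replication-dependent histone genes did not follow, with 1 of 56 higher, 1 lower and a median of -0.04.

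E2F factors bind the promoters of many S phase genes, and the cell cycle homology region, CHR, marks those of many mitotic genes. The letters TTTNGCGC, a core of the E2F site, were searched on both strands in RefSeq promoter windows of GRCh38.p14 that run from 250 bases before to 50 after a gene's start. They were in 1.83% of 27305 windows and in 15 of the 34 replication genes with a window, among them 11 of the 22 that fell and 4 of the 12 that did not pass. The CHR letters TTTGAA were in 15.4% of windows and in 21 of 32 mitosis genes, 16 of the 24 that fell and 5 of the 8 that did not pass. A match to these letters is a description and not a bound site. The windows of the 2 members of each list with the smallest p whose window held the letters are shown, with the matched letters in capitals. CCNE2, which had the smallest p of the replication list, is not among the genes with the letters. In MCM6 the 4 matches are 2 overlapping pairs, 1 on each strand, and in HMMR the 2 matches lie end to end. On GRCh38.p14 the MCM6 window is chr2:135876394-135876693 (minus strand), the POLE2 window chr14:49688165-49688464 (minus), the SPC25 window chr2:168890381-168890680 (minus) and the HMMR window chr5:163460382-163460681 (plus).
MCM6: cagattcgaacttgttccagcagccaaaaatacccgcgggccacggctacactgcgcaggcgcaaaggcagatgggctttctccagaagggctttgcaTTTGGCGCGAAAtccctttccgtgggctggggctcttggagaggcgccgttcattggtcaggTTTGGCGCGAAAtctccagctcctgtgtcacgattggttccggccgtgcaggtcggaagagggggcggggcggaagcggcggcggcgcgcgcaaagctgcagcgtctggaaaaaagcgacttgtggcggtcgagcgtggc
POLE2: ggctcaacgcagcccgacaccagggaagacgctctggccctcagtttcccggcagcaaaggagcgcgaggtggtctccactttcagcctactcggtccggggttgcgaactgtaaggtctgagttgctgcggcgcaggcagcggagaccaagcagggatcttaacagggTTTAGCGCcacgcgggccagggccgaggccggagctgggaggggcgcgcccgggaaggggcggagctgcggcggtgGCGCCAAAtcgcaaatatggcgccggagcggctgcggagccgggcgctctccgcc
SPC25: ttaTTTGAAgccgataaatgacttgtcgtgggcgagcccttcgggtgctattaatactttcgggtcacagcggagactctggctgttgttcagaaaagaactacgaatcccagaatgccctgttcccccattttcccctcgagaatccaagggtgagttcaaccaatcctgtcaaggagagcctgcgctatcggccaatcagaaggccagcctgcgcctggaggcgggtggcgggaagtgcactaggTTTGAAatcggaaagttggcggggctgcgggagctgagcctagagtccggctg
HMMR: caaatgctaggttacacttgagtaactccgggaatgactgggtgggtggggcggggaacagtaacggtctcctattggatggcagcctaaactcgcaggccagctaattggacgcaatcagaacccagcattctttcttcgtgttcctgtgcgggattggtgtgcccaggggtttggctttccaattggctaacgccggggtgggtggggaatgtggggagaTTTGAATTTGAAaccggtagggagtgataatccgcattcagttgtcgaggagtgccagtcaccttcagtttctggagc

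**Figure D3:**
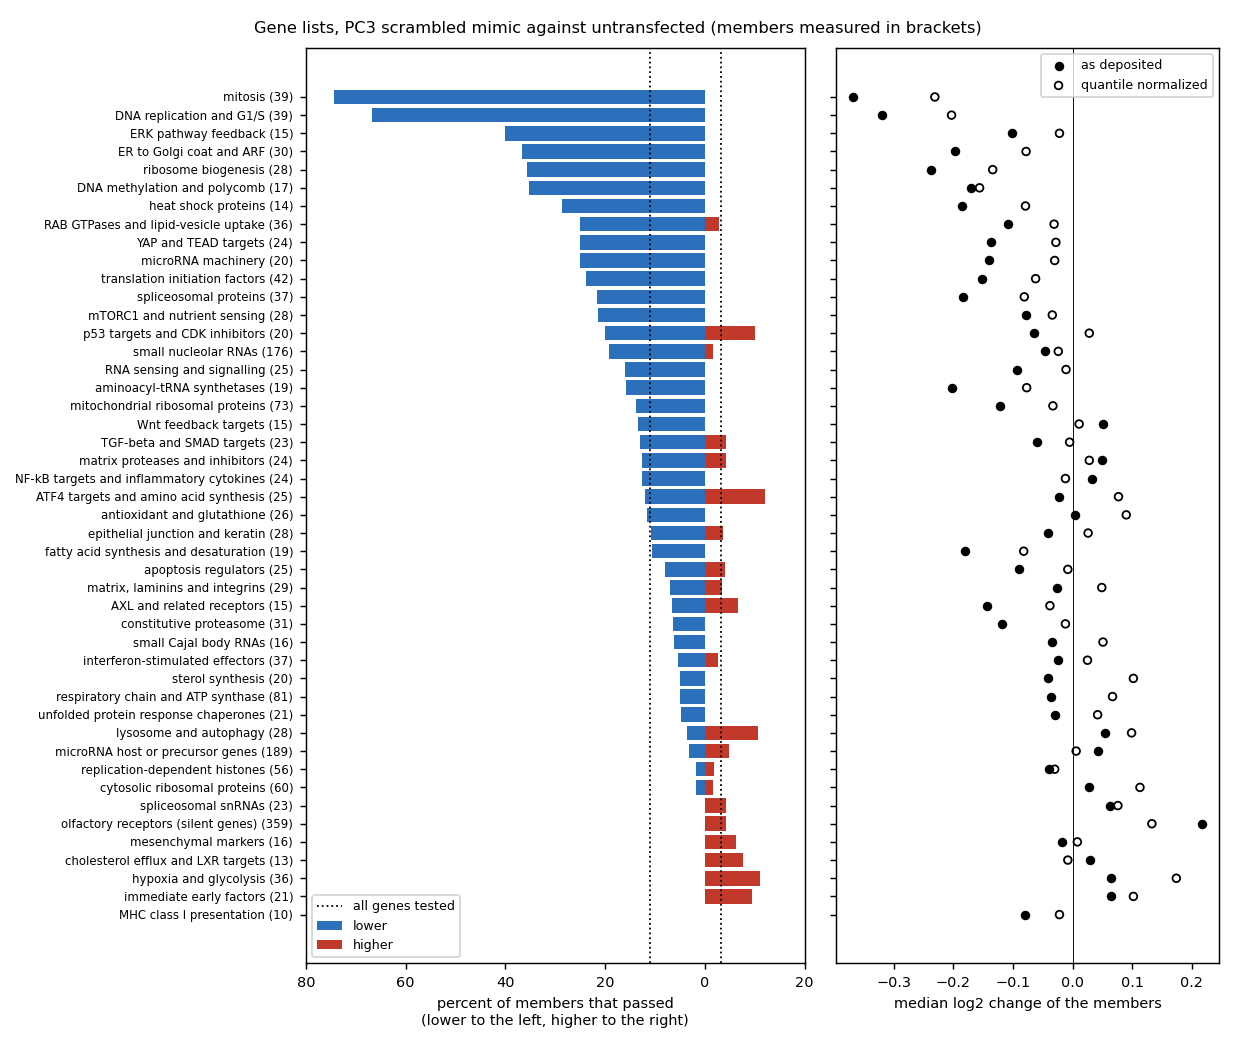
Gene lists with at least 10 measured members, with the percent of members lower (blue, to the left) and higher (red, to the right) on the left and the median log2 change on the right, as deposited (filled) and quantile normalized (open). Dotted lines mark the shares over all genes, 10.9% lower and 3.32% higher, and the mitosis and DNA replication lists extend farthest to the left.

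Genes for making and shipping proteins fell in several lists. Of 30 genes of the coats and ARF proteins between the endoplasmic reticulum and the Golgi, 11 fell and 0 rose (36.7% lower against 12.4% in the level decile of its middle gene, median -0.20), and 6 fell after quantile normalization. Besides SEC24C they included ARFGAP2, which removes ARF1 from COPI coats (-0.76 ± 0.093), the cargo receptor LMAN1 (-0.51 ± 0.081) and SEC24A (-0.46 ± 0.087). SEC24C and ARFGAP2 passed without each array in turn. Of 28 ribosome biogenesis genes 10 fell and 0 rose (35.7% lower against 20.9% in that decile, median -0.24), and 3 fell after quantile normalization. NOP58, a core protein of box C/D small nucleolar ribonucleoproteins, read 10.34 and 10.14 untransfected and 9.58 and 9.59 with the mimic (-0.66 ± 0.086), and the RNA polymerase I subunit POLR1B fell by 0.51 ± 0.11. Of 42 translation initiation factors 10 fell and 0 rose (23.8% lower against 12.4%), with EIF2B3 at -0.66 ± 0.11 and EIF2A at -0.47 ± 0.075 beside EIF2S3, and 6 fell and 1 rose after quantile normalization. Without untransfected array b these 3 lists kept 2, 1 and 1 falls, and without scrambled array c they kept 3, 1 and 4.

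Ribosomal protein, proteasome, respiratory chain and chaperone lists showed counts below the shares over all genes, 3.32% higher and 10.9% lower. In that order 1.67%, 6.45%, 4.94% and 4.76% of their members were lower. Of 60 cytosolic ribosomal protein genes 1 rose (RPL13, 0.34 ± 0.083) and 1 fell (RPS25, -0.53 ± 0.079), with a median of 0.03. Of 31 genes of the proteasome 2 fell, of which PSMD11, a lid subunit, fell by 0.73 ± 0.096. Of 81 genes of the respiratory chain and ATP synthase 4 fell and 0 rose, with NDUFS1 of complex I at -0.50 ± 0.11. Of 21 chaperones of the unfolded protein response EDEM1 (-0.37 ± 0.084) fell and 0 rose.

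Genes that sense foreign RNA or answer interferon did not rise as a group. Of 37 interferon-stimulated effector genes 1 rose, 2 fell and 34 did not pass, with a median of -0.03. The 2.7% higher is near the 3.32% over all genes, and the 5.41% lower is below the 10.9% over all genes. IFI44L read 8.55 and 8.43 untransfected and 8.85 and 8.98 with the scrambled mimic (0.42 ± 0.096, adjusted p = 0.0192 by limma). IFI44 read 6.97 and 6.69 against 6.19 and 6.26 (-0.61 ± 0.12), and IFIT1, which binds viral RNA, read 7.70 and 7.60 against 7.36 and 7.24 (-0.35 ± 0.086). All 3 calls were lost without untransfected array b and without scrambled array c. MX1, an antiviral GTPase, and OAS1, a sensor of double-stranded RNA, were picked after their values were seen. They did not pass, at -0.19 ± 0.14 and 0.11 ± 0.11. With the miR-452 mimic, set against the same untransfected arrays, 25 of the 37 genes were higher where 8.12% of all genes were, and MX1 stood at 1.83 and OAS1 at 1.69. With miR-224, 0 were higher and 7 lower, where 2.84% and 6.85% of all genes were. The 10 genes of MHC class I presentation gave 0 calls, with 0 higher and 2 lower at an unadjusted p under 0.05, and 1 higher after quantile normalization.

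Of 25 genes of RNA sensing and its signalling 4 fell and 0 rose, and the 16% lower is near the 16.8% of all genes in the level decile of the list's middle gene. After quantile normalization 3 were lower and 1 higher. The 4 were ADAR, which edits double-stranded RNA (10.09 and 10.06 against 9.64 and 9.43, -0.55 ± 0.097), the adaptor STING1 (-0.43 ± 0.084), the interferon receptor chain IFNAR2 (-0.39 ± 0.093) and the DNA sensor CGAS (-0.56 ± 0.16). None of the 4 passed without untransfected array b or without scrambled array c. Of 24 NF-kB targets and inflammatory cytokines 3 fell and 0 rose, a share of 12.5% that is near the 10.9% over all genes. NFKBIZ, an atypical inhibitor of NF-kB, read 8.0 and 7.94 untransfected and 7.39 and 7.38 with the mimic (-0.59 ± 0.075) and passed without each array. NFKB1 (-0.47 ± 0.096) and NFKB2 (-0.37 ± 0.10) lost their calls without untransfected array b or scrambled array c.

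**Figure D4:**
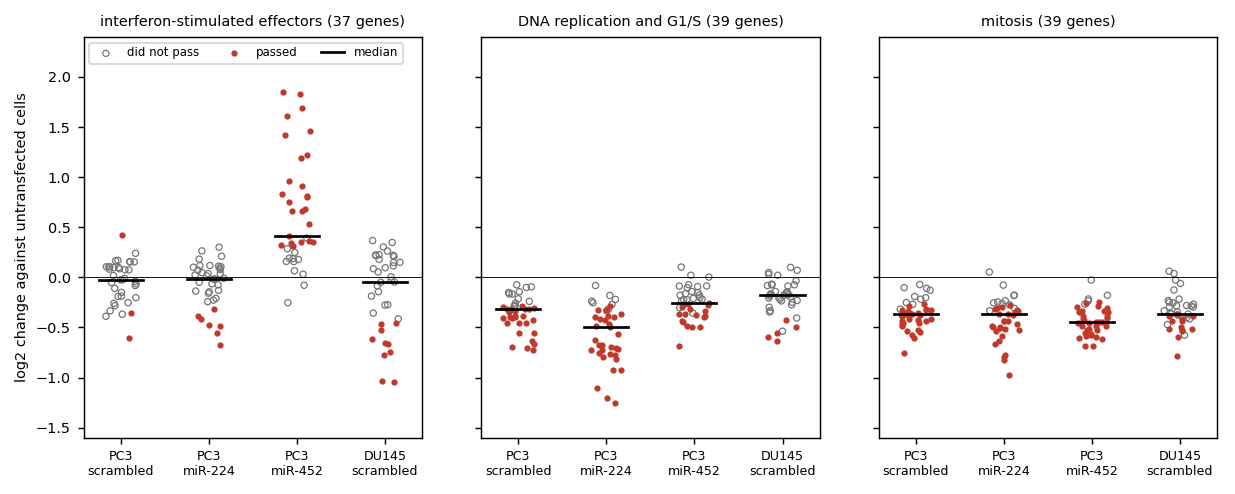
Log2 change against untransfected cells of the interferon-stimulated, DNA replication and mitosis genes for the 3 PC3 mimic groups, which share 2 untransfected arrays, and for the DU145 scrambled array, which has its own. Each point is 1 gene, filled points passed and bars are medians, and the interferon genes spread upward with miR-452 (median 0.41) and not with the scrambled mimic (median -0.03).

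Of 20 genes of the microRNA machinery 5 fell and 0 rose, and the 25% lower is near the 20% of all genes in the same level decile. AGO2, the Argonaute that cuts its targets, read 10.16 and 9.97 untransfected and 9.60 and 9.53 with the mimic (-0.50 ± 0.090). AGO3 (-0.35 ± 0.080), the uridylyl transferase TUT4 (-0.33 ± 0.085) and DROSHA, which cuts microRNA precursors in the nucleus (-0.41 ± 0.11), fell as well. After quantile normalization 1 of the 20 was lower, and none was without untransfected array b or without scrambled array c. Among 189 microRNA host or precursor genes 9 rose and 6 fell (4.76% and 3.17%), with MIR222 at -0.55 ± 0.092 and MIR100 at -0.69 ± 0.12. Over all genes 3.32% rose and 10.9% fell, and in the level decile of the list's middle gene 2.83% rose and 1.41% fell. The list's median change was 0.04.

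Small nucleolar RNAs guide chemical changes of ribosomal and spliceosomal RNA, and most are cut from introns of host genes that serve translation. Of 115 box C/D members 30 fell and 0 rose (26.1% lower, median -0.08), at levels where 2.78% of all genes in the same decile fell, and 29 were lower after quantile normalization. Of 61 box H/ACA members 3 rose and 4 fell (4.92% and 6.56%), where 6.47% and 8.81% of all genes in their level decile did. SNORD78 read 7.46 and 6.65 in untransfected cells and 5.82 and 5.85 with the scrambled mimic (-1.22 ± 0.19, adjusted p = 0.00393 by limma). SNORD59B read 6.99 and 6.76 against 6.08 and 5.98 (-0.85 ± 0.097). SNORD45B fell by 1.02 ± 0.17, SNORD58A by 0.96 ± 0.20, SNORD50B by 0.85 ± 0.15 and SNORD50A by 0.60 ± 0.086. Untransfected array b lay above array c for each of the first 5. Without that array 3 box C/D genes were lower, SNORD78, SNORD59B and SNORD50A, and without scrambled array c 8 were. The other mimics gave 29 (miR-224) and 36 (miR-452) lower box C/D members against the same arrays, where 6.85% and 14.1% of all genes were lower. The U4 spliceosomal RNA gene RNU4-1, at 10.92 and 10.53 against 11.50 and 11.64, rose by 0.85 ± 0.24 and lost its call without any 1 of the 4 arrays. Features for such short RNAs can also read their host transcripts or near-identical copies.

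The stress lists held single changes in both directions. Of 25 ATF4 targets and amino acid genes 3 rose and 3 fell (12% each way). In the level decile of the list's middle gene 2.12% of all genes were higher and 20% lower, so only the share of rises lay above it. CTH and GDF15 rose as above, NUPR1, a stress-induced chromatin protein, rose by 0.53 ± 0.080, and PSAT1 of serine synthesis fell by 0.61 ± 0.094. Of 14 heat shock genes 4 fell (28.6% lower against 12.4% in their level decile), among them the small heat shock protein HSPB1 (-0.28 ± 0.079) and the co-chaperone BAG3 (-0.39 ± 0.081). Of 20 p53 targets and CDK inhibitors 2 rose and 4 fell, where 20.4% of all genes in the level decile were lower, and after quantile normalization 7 were higher and 2 lower. PMAIP1, which encodes the BH3 protein NOXA, read 8.50 and 8.57 untransfected and 7.82 and 7.72 with the mimic (-0.77 ± 0.085), MDM2 fell by 0.37 ± 0.081 and BBC3, which encodes PUMA, rose by 0.46 ± 0.11. PMAIP1, CTH and GDF15 passed without each array in turn, and HSPB1, BAG3, MDM2, BBC3, NUPR1 and PSAT1 did not without untransfected array b.

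Hypoxia and lysosome genes were among the lists with more rises than falls. Of 36 hypoxia and glycolysis genes 4 rose and 0 fell (11.1% higher, median 0.06). Over all genes 3.32% were higher, and 1.2% in the level decile of the list's middle gene. After quantile normalization 9 rose and 0 fell, where 5.01% of all genes and 6.91% of that decile were higher. NDRG1, which hypoxia induces, read 11.03 and 11.07 untransfected and 11.61 and 11.49 with the mimic (0.50 ± 0.081). EPAS1, the factor HIF-2α, read 9.63 on both untransfected arrays and 10.15 and 10.09 with the mimic (0.49 ± 0.081). BNIP3, a mitophagy receptor (0.35 ± 0.074), and PFKFB4, which sets the level of a glycolytic activator (0.35 ± 0.081), rose too. All 4 calls were lost without untransfected array b. Of 28 lysosome and autophagy genes 3 rose and 1 fell (10.7% higher, against the same 1.2% in their level decile), and 7 rose and 1 fell after quantile normalization. SQSTM1, the autophagy receptor p62, rose by 0.50 ± 0.082, the protease cathepsin D gene CTSD by 0.38 ± 0.093 and the kinase ULK1 by 0.32 ± 0.096, while the proton pump subunit ATP6V1H fell by 0.26 ± 0.080. NPC2, which carries cholesterol out of lysosomes, rose by 0.42 ± 0.076. None of these lysosome genes passed without untransfected array b.

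Lists tied to growth signals held falls, in part at shares near those of all genes at their level. Of 15 feedback genes of the ERK pathway 6 fell and 0 rose (40% lower against 12.4% in their level decile), with the transcription factor ETV5 at -0.66 ± 0.093, the inhibitors SPRED1 at -0.56 ± 0.088, SPRY4 at -0.46 ± 0.087 and SPRY1 at -0.36 ± 0.077. After quantile normalization 3 were lower and 1 higher. Of 24 YAP and TEAD targets 6 fell and 0 rose (25% lower, near the 20.9% in their decile), AXL among them, with CCN2 (connective tissue growth factor) at 10.08 and 10.11 untransfected and 9.59 and 9.37 with the mimic (-0.61 ± 0.088). Of 17 DNA methylation and polycomb genes 6 fell (35.3% lower against 20.4%) and 3 were lower and 1 higher after quantile normalization, with the helicase HELLS at -0.62 ± 0.097, DNMT1 at -0.38 ± 0.079 and EZH2 at -0.45 ± 0.094. Of 36 RAB GTPase and vesicle uptake genes 9 fell and 1 rose (25% lower, near 20.9%), and after quantile normalization 3 were lower and 1 higher, with RAB27A, which docks secretory vesicles, at -0.49 ± 0.085 and RAB18 at -0.74 ± 0.14. Of 24 genes of matrix proteases and inhibitors 3 fell (12.5%, near the 10.9% over all genes) and ADAMTS1 rose (0.31 ± 0.086). The falls were MMP13 (-0.53 ± 0.078), MMP1 (-0.50 ± 0.10) and the plasminogen activator PLAT (-0.57 ± 0.084). Without untransfected array b the ERK, YAP, methylation and RAB lists kept 0, 1, 0 and 0 falls, and without scrambled array c 2, 3, 1 and 3.

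Olfactory receptor genes, which are silent in most tissues, stand at the low end of the scale. Of 359 such genes 15 were higher (4.18%, near the 3.32% over all genes) and 0 lower, with a median change of 0.22. Their median level was 5.70 and 5.67 on the untransfected arrays and 5.70 and 6.10 on scrambled arrays b and c, so the shift lay in array c. Without array c the median change was 0.04 with 1 gene higher, and without array b it was 0.37 with 177 higher. After quantile normalization 2 were higher and the median change was 0.13, and without untransfected array b none was higher. With miR-452, 172 were higher against the same untransfected arrays, where 8.12% of all genes were.

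DU145 gave a comparison of the same kind with no array in common. Its scrambled array against 2 untransfected arrays gave 2172 genes that passed (11.8%), 478 higher (2.6%) and 1694 lower (9.22%), with the lone array taken to vary like the other DU145 groups. Lower in both lines were 849 genes, 42.3% of those lower in PC3 and 50.1% of those lower in DU145. Higher in both were 102, which are 16.7% and 21.3%. After quantile normalization within each line, where 1.86% of genes were higher and 3.27% lower in DU145, 243 were lower and 87 higher in both. Across the 18377 genes, which are not independent replicates, the 2 sets of changes had r = 0.727 and rho = 0.729 as deposited and r = 0.663 after quantile normalization. The DU145 scrambled array also had a narrower spread of values than its untransfected arrays (SD 1.571 against 1.647 and 1.650). Without 1 of the DU145 untransfected arrays 0 or 4 genes passed there.

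Of the 15 largest PC3 falls outside the small RNAs 14 were also lower in DU145, where GYG1 (-0.26 ± 0.12) did not pass. Over all genes 9.22% were lower and 2.6% higher in DU145. AXL fell by 1.21 ± 0.10 in DU145, RNF157 by 1.23 ± 0.10, SFT2D2 by 1.65 ± 0.18 and RRAGC by 1.06 ± 0.14. After quantile normalization AXL stood at -1.15 there, RNF157 at -1.07, SFT2D2 at -1.50 and RRAGC at -1.01. The smaller falls shrank further, with EEIG2 at -0.76, CIAO2A at -0.34 and GYG1 at -0.06. SNORD78 and SNORD45B fell by 1.02 and 1.08. Of the 15 rises DND1 passed in DU145 (0.75 ± 0.20), 14 had the same sign and CTH was at -0.31. KRTAP5-4, LOC652276, LEFTY2, KRTAP5-1 and RNU4-1 were the other genes named as higher in both lines, with PC3 changes of 0.54, 0.53, 0.51, 0.51 and 0.85. The median DU145 change was -0.37 for the mitosis genes, -0.18 for the replication genes and -0.05 for the interferon-stimulated genes. Over all genes it was 0.027. After quantile normalization the medians of these lists were -0.24, -0.05 and -0.09, and that over all genes was 0.012. The interferon median does not stand for each gene. Of the interferon-stimulated genes that passed in PC3, IFIT1 stood at -1.04 in DU145, IFI44 at -0.45 and IFI44L at 0.35, as deposited.

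The difference between the lines was itself tested, and 38 genes passed (0.207%), 29 with the larger value in PC3 (0.158%) and 9 with the smaller (0.049%). TBXAS1, the thromboxane synthase, fell by 0.76 ± 0.081 in PC3, from 8.52 and 8.51 to 7.83 and 7.67, and stood at 0.27 in DU145. FST, which encodes the activin antagonist follistatin, fell by 0.56 ± 0.074 in PC3 and stood at 0.23 in DU145. CYP4F11, ADD2, NMRAL2P and SERTAD4 went the other way, with DU145 falls of 0.84, 0.78, 0.97 and 0.95 against PC3 changes of 0.21, 0.19, 0.32 and 0.07, of which NMRAL2P passed. CTH passed as well, higher in PC3 by 1.10 ± 0.16. The count of 38 became 3 without PC3 untransfected array b, 2 without array c, and 0 without PC3 scrambled array c or without either DU145 untransfected array.

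**Figure D5:**
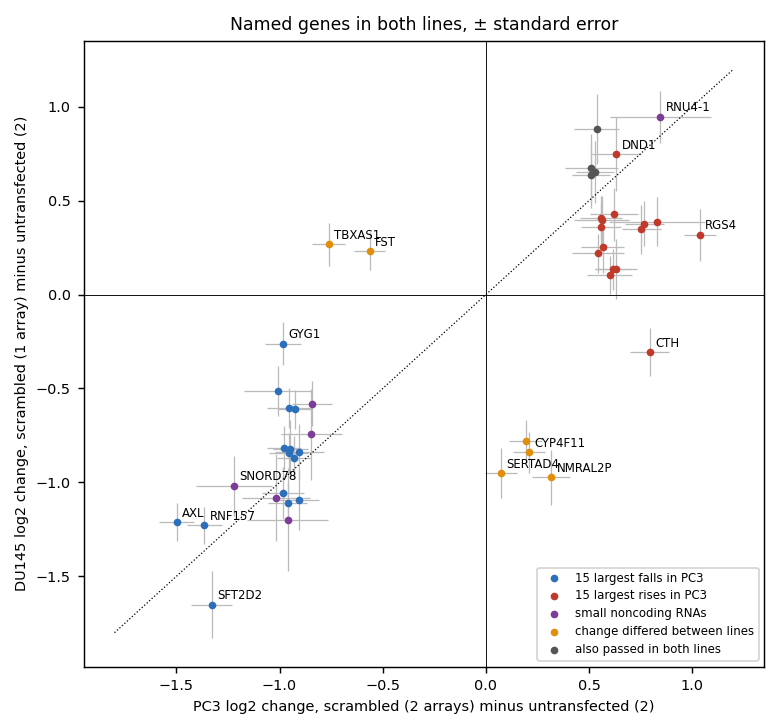
Log2 change with the scrambled mimic in PC3 (2 against 2 arrays) and in DU145 (1 against 2) for the genes named in both lines, with bars of ± 1 standard error and a dotted line of equal change. The largest PC3 falls lie low in both lines, with AXL at -1.50 and -1.21, while TBXAS1 and FST fell in PC3 and stood above 0 in DU145.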

How the data were processed

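Total RNA (100 ng per array) was labelled with the WT Expression kit and, per the labels, hybridised to the Human Gene 1.0 ST design of Affymetrix. The authors deposited log2 levels, computed with RMA16 in GeneSpring GX 11.0, with PC3 and DU145 arrays normalized separately, per the design text. They ran from 4.49 to 14.18 and were used as deposited. RMA as commonly defined gives the arrays of a set 1 distribution, and these arrays differed in spread, as the results give. The authors left out a DU145 scrambled array for bad performance, per the design text.

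Of 28869 features 19310 carried 1 gene symbol, 1752 several and 7807 none in the platform annotation. Symbols were updated through the RefSeq gene table (19279 features matched), and features of a symbol were averaged, which gave 18377 genes, 685 from several features. Features with several or no symbols were left out. limma 3.58.1 in R 4.3.3 fitted 4 group means to the 8 PC3 arrays with empirical Bayes moderation (4 residual degrees of freedom), and likewise to the 7 DU145 arrays (3). The difference between lines was a contrast in a fit of all 15 arrays. Tests were two-sided, with Benjamini-Hochberg adjustment over all genes of a comparison. The number of arrays limits the precision. The code was tested on simulated data.

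Genes were named by size among those that passed with no overlap between groups (15 rises, 15 falls and up to 6 small noncoding RNAs), by p within each list described (at most 4) and for the contrast of the lines (at most 6), and by the smaller of the 2 changes among genes that passed in PC3 and DU145 (at most 6 per direction). AXL was named in any case. Lists numbered 47, of which 35 were written by gene (846 of 910 entries measured) and 12 by symbol pattern. The comparison, lists and rules were chosen with earlier results of these data known. A list is described by its counts and median, with no test of the list. Replicate letters b and c occur in both PC3 groups, and nothing in the labels says that they mark a shared culture.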

Additional observations from a re-analysis of the deposited data

Results flagged for a closer look

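In 6 genes the change with the scrambled mimic differed between PC3 and DU145 by limma's test of the difference (PC3 change minus DU145 change, log2 units, 15 arrays), the smallest p-values of the 38 that passed. The difference was 1.05 for CYP4F11, 0.97 for ADD2, 1.29 for NMRAL2P and 1.02 for SERTAD4, where the change was above 0 in PC3 and DU145 fell. It was -1.03 for TBXAS1 and -0.80 for FST, which fell in PC3 and stood above 0 in DU145. DU145 has 1 scrambled array, whose own spread is not measured.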

How the results depend on the processing

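For the scrambled mimic against untransfected PC3 cells the total of 2618 genes stayed within 1.5 times of that count under each alternative other than leaving out arrays, where it ran from 82 to 2944. The letters b and c were not shown to pair the arrays, with r = -0.0256 between same-letter deviations of the 2 groups, and with the letter as a replicate block 516 genes were higher and 2049 lower. Centring each array on its median gave 966 higher and 1647 lower. In DU145 the total of 2172 became 3718 with all 15 arrays in 1 fit, 942 after quantile normalization, 413 with the replicate block and from 0 to 5649 with 1 array left out. The difference between lines, 38 genes, became 18 with median centring, 64 with trend and robust moderation, 0 with the replicate block (927 at an unadjusted p under 0.05) and from 0 to 106 with 1 array left out. Against the mean of the microRNA mimics 1496 genes passed, and from 689 to 1390 with 1 array left out. Signs turned for SERTAD4 in PC3 after quantile normalization (-0.021), and against the microRNA mimics for OR5M10 without scrambled array b (0.32) and PRAMEF20 without scrambled array c (-0.10), none of which passed there. With 1 array left out these 2 ran from -0.59 to 0.32 and from -0.10 to 0.41. The cause of these shifts was not tested. With 2 arrays in each group, 1 array decides most small changes, and the lists of falls rest on untransfected array b and scrambled array c as given beside them.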

Other observations

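Matrix and growth factor lists in PC3 held a few larger falls among many genes that did not pass. Of 29 matrix, laminin and integrin genes 2 fell and 1 rose (6.9% lower, where 10.9% of all genes were). NID1, which links laminin to collagen in basement membranes, read 8.93 on both untransfected arrays and 8.36 and 8.16 with the scrambled mimic (-0.67 ± 0.094), and the laminin chain gene LAMB1 read 10.42 and 10.37 against 9.94 and 9.83 (-0.51 ± 0.089), while LAMB3 rose by 0.32 ± 0.087. Of 23 TGF-beta and SMAD targets 3 fell and 1 rose (13% lower, near the 10.9%), and after quantile normalization 1 was lower and 3 higher, with SMAD3, the signal transducer, at -0.53 ± 0.089 and ID2, an inhibitor of helix-loop-helix factors, at 0.43 ± 0.097. Of 15 Wnt feedback genes 2 fell (13.3% lower, where 10.9% of all genes were), among them TCF7L2, a partner of beta-catenin (-0.56 ± 0.094). Among 28 epithelial genes KRT80 (-0.57 ± 0.14), EPCAM (-0.55 ± 0.13) and DSP (-0.30 ± 0.090) fell and ELF3 rose (0.31 ± 0.086). The 10.7% lower and 3.57% higher are near the 10.9% and 3.32% over all genes. Among 16 mesenchymal genes SNAI2 rose by 0.35 ± 0.098 (6.25% higher, where 3.32% of all genes were). Without untransfected array b none of the changes in this paragraph passed.

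Of 26 antioxidant genes 3 fell and 0 rose (11.5% lower, near the 10.9% over all genes). They were GCLM, a subunit of the enzyme that starts glutathione synthesis (-0.54 ± 0.10), the thioredoxin reductase TXNRD1 (-0.41 ± 0.076) and the cystine importer SLC7A11 (-0.34 ± 0.075). Of 28 mTORC1 and nutrient sensing genes 6 fell and 0 rose (21.4% lower, near the 20.9% of all genes in the same level decile), including the AMPK subunit PRKAA1 (-0.42 ± 0.087) and RRAGB (-0.38 ± 0.098) beside RRAGC. Of 37 spliceosomal protein genes 8 fell and 0 rose (21.6%, near the same 20.9%), with SNRPD1 at -0.55 ± 0.13 and PRPF4 at -0.46 ± 0.10, and of 73 mitochondrial ribosomal protein genes 10 fell and 0 rose (13.7%, below that share), with MRPS18C at -0.55 ± 0.13. Of 21 immediate early genes DUSP1 (0.33 ± 0.081) and KLF2 (0.25 ± 0.076) rose and 0 fell. That is 9.52% higher, where 3.32% of all genes and 2.12% of those in the list's level decile were. Of 25 apoptosis regulators BMF rose (0.37 ± 0.093) while MCL1 (-0.38 ± 0.10) and CFLAR (-0.34 ± 0.093) fell. The 4% higher and 8% lower are near or below the 3.32% and 10.9% over all genes. After quantile normalization 2 antioxidant genes were lower and 3 higher, 2 mTORC1 genes lower and 1 higher, 3 spliceosomal genes lower and 1 higher, and 4 mitochondrial ribosomal genes lower and 3 higher. The apoptosis list then had 1 lower and 3 higher. Without untransfected array b, of the changes in these lists, 1 mTORC1 gene passed.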
